A study of Hordeum vulgare with 6 samples.

Results

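Genes annotated as DNA transposon proteins were followed in young panicles of the barley mutant msnsd and of its parent variety E934. A gene was counted when its deposited description named a transposase, a transposon protein or 1 of the terms hAT, Mutator, CACTA, FAR1, PIF or Mariner as a whole word, and genes described as retrotransposon or phytochrome proteins were left out. This gave 1285 of the 40411 genes of the table, of which 1132 were transposase genes and 153 were FAR1-type genes. The transposase genes were set apart into 6 classes by the words of the description: 536 CACTA (En/Spm), 206 Mutator, 166 PIF/Harbinger (listed as Pong sub-class or Harbinger), 147 hAT, 14 Mariner and 63 with no family named. The hAT class also holds genes described only by a BED zinc finger or a hAT dimerisation domain, so its members need not all be elements.

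The mutant msnsd, with many stem nodes, more than 1 spike per tiller and short stems, was obtained from E934 after treatment with ethyl methane sulfonate (EMS) and 60Co. It is a single line, and the difference at its mapped locus on chromosome 5H and any other change that the treatments left in it cannot be told apart by the comparison with E934. RNA-seq was performed on panicles of 0.5 to 1 cm, at the glume to lemma primordium stages, with 3 biological replicates of msnsd and 3 of E934. The question put to these genes was whether their transcript levels differed between the genotypes, for the transposases and for the host genes derived from them.

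DNA transposons move as DNA, cut out and pasted elsewhere by a transposase that binds the ends of the element. The CACTA, Mutator, PIF/Harbinger, hAT and Mariner superfamilies differ in their transposases and in the ends these recognise, and most copies in large cereal genomes are silenced by DNA methylation, histone marks and small RNAs, or are damaged and no longer code for a working enzyme. FAR1-type genes are host genes that plants made from Mutator-like transposases. In Arabidopsis, FAR1 and FHY3 are transcription factors that act downstream of the light receptor phytochrome A, and their relatives are called FAR1-RELATED SEQUENCE (FRS) genes.

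The authors listed 1 value per gene and library in TPM, for which reads are divided by transcript length and scaled to a library total that is the same for every library. TPM keeps no depth, so the depth of each library is unknown. Between 33227 and 35537 genes were above 0 in a library, and E934 replicate 2 had the most. Markers of the inflorescence (MADS-box, KNOX, squamosa promoter-binding and TERMINAL FLOWER genes, 75 of 86 tested) summed to 2276 ± 31.0 TPM in msnsd and 2250 ± 21.0 TPM in E934 (SD, n = 3 each). Single genes among them differed in both directions. In limma (unadjusted p under 0.05) 16 were higher (21.3%) and 10 lower (13.3%), against 5.58% and 5.09% of all genes. The threshold used below was passed by 2 of them, of 16 among all genes. The close sums therefore do not show that the panicles were alike in makeup. Leaf markers (94 of 109 tested) summed to between 1327 and 1725 TPM in msnsd and between 1223 and 1607 TPM in E934, and anther and pollen markers (5 of 8 tested) to between 62.0 and 74.4 TPM in msnsd and between 72.6 and 88.8 TPM in E934. Grain markers (3 of 5 tested) reached at most 19.9 TPM in msnsd and 22.0 TPM in E934. In whole panicles, fewer cells of a type and less RNA per cell cannot be told apart.

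Most transposase genes were at low levels in both genotypes. A mean of at least 0.1 TPM over the 6 libraries, the minimum for testing, was reached by 685 of 1132 transposase genes (60.5%) and by 113 of 153 FAR1-type genes (73.9%), against 81.6% of all genes. Only 385 transposase genes were above 0 in every library. The median of the mean level was 0.158 TPM for transposase genes, 0.777 TPM for FAR1-type genes and 2.07 TPM for all genes. A mean of at least 1 TPM was reached by 207 transposase genes (18.3%) and 75 FAR1-type genes (49.0%), and of at least 10 TPM by 47 and 22. Among the classes, 98 of 536 CACTA genes, 23 of 206 Mutator genes, 27 of 166 PIF/Harbinger genes and 41 of 147 hAT genes were at 1 TPM or more. The annotation placed 1049 of the transposase genes and 85 of the FAR1-type genes in its low-confidence set, and 966 of the transposase genes carried its transposon label. Many of these models are short, with a median span of 681 bp for transposase genes, against 1276 bp for FAR1-type genes and 1507 bp for all genes. Copies of a family share sequence, and Salmon, which assigned the reads, could split them between near-identical copies, so the level of a single copy is uncertain.

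The summed level of the transposase genes did not separate the genotypes. It was 2094, 1785 and 1649 TPM in msnsd replicates 1, 2 and 3, and 2130, 2396 and 1855 TPM in E934 replicates 1, 2 and 3. The genotypes overlapped, since msnsd replicate 1 lay above E934 replicate 3. The means were 1843 ± 228 TPM in msnsd and 2127 ± 270 TPM in E934 (SD, n = 3 each), or 0.165% to 0.209% of a msnsd library and 0.186% to 0.240% of an E934 library. The FAR1-type genes summed to 806, 749 and 681 TPM in msnsd replicates 1, 2 and 3, and to 816, 883 and 777 TPM in E934 replicates 1, 2 and 3. Their means were 745 ± 62.8 TPM in msnsd and 826 ± 53.5 TPM in E934 (SD, n = 3 each), again with msnsd replicate 1 above E934 replicate 3. Sums over chosen members were not tested.

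Each transposase class but Mutator overlapped between the genotypes. Mutator genes summed to 207, 206 and 182 TPM in msnsd and to 226, 272 and 210 TPM in E934, so that every msnsd library lay below every E934 library. This gap was narrow, 206.9 TPM in the highest msnsd library against 209.7 TPM in the lowest E934 library. CACTA genes, the largest class, summed to 633, 591 and 485 TPM in msnsd and to 630, 793 and 587 TPM in E934. hAT genes, although fewer, gave the largest sum, 863, 670 and 674 TPM in msnsd against 862, 911 and 734 TPM in E934. PIF/Harbinger genes summed to 220, 183 and 179 TPM in msnsd and 247, 224 and 183 TPM in E934. The 14 Mariner genes gave 53.9, 38.1 and 36.7 TPM in msnsd and 50.9, 69.5 and 44.6 TPM in E934, and 71.5% of their sum came from HORVU.MOREX.r3.6HG0580570, which was named after its values were seen.

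**Figure D1:**
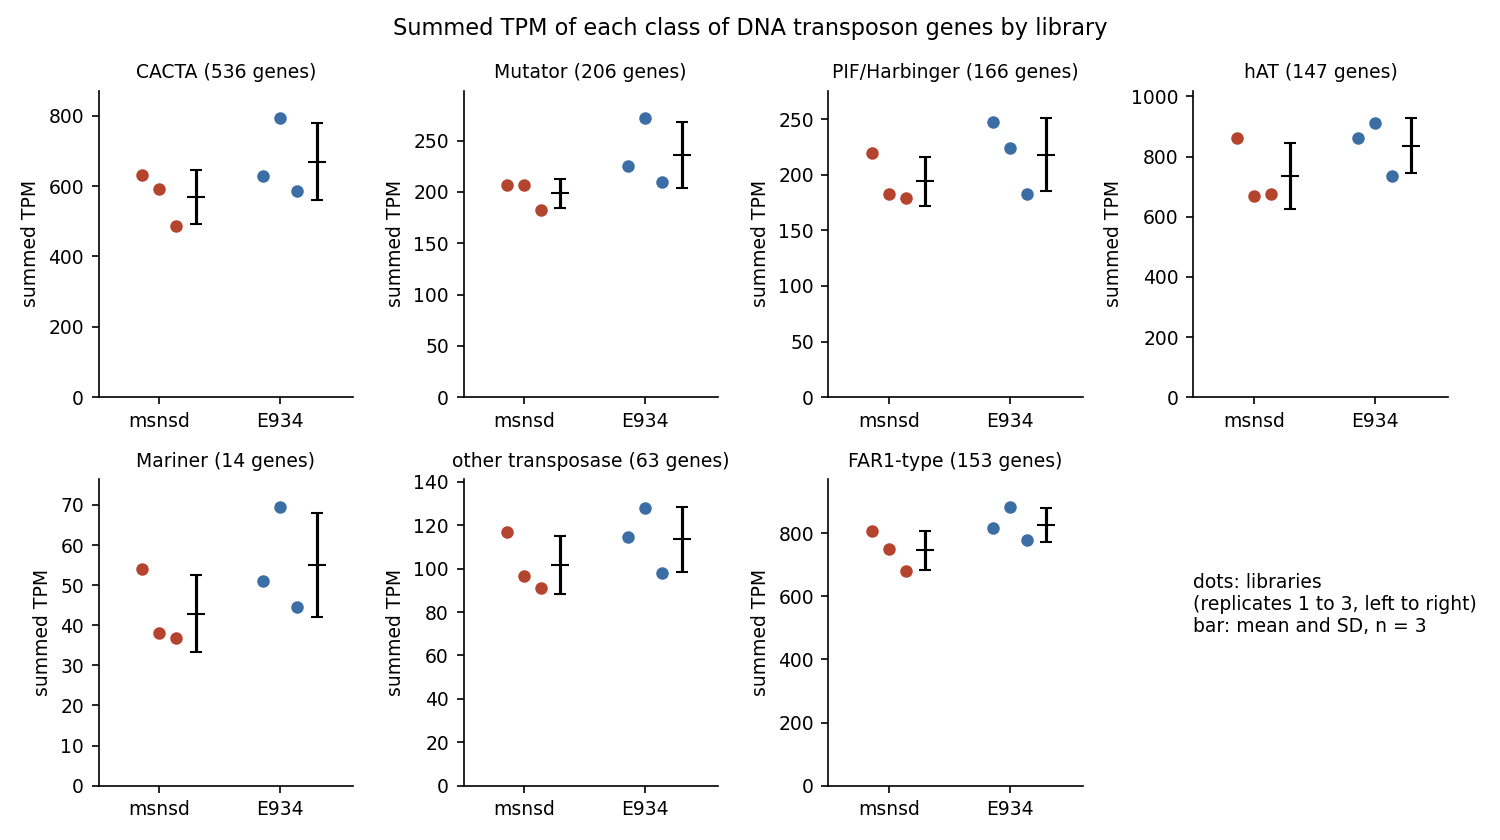
Summed TPM of each class in each library (points, replicates 1 to 3 from left to right; horizontal and vertical bars, mean and SD of 3 libraries), with msnsd left of E934 and every axis from 0. Of the 7 panels only Mutator shows all 3 msnsd libraries below all 3 E934 libraries, by 206.9 against 209.7 TPM at the closest.

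The libraries differed from each other in the level of these genes within a genotype. The level of each gene in a library was set against its mean over the 6 libraries on the log2(TPM + 0.1) scale, and the median over the 685 tested transposase genes was taken. It was 0.10, -0.12 and -0.23 in msnsd replicates 1, 2 and 3, and 0.12, 0.33 and -0.20 in E934 replicates 1, 2 and 3. E934 replicate 2 was the highest, while E934 replicate 3 lay among the lower msnsd libraries. The FAR1-type genes gave medians of 0.06, -0.06 and -0.14 in msnsd and of 0.05, 0.17 and -0.07 in E934, with the same library highest and the same library lowest. The 677 tested retrotransposon genes, which the rule left out, gave 0.17, -0.20 and -0.23 in msnsd and 0.25, 0.28 and -0.26 in E934. The 11905 tested low-confidence genes outside the rule gave 0.08, -0.10 and -0.14 in msnsd and 0.09, 0.25 and -0.09 in E934. In all of these lists E934 replicate 2 was the highest library. The 20373 tested high-confidence genes stayed within a narrow band, with medians from -0.01 to 0.04 in msnsd and from -0.04 to 0.05 in E934. The part of these library differences in the comparison of the genotypes was not tested beyond leaving out each library in turn.

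**Figure D2:**
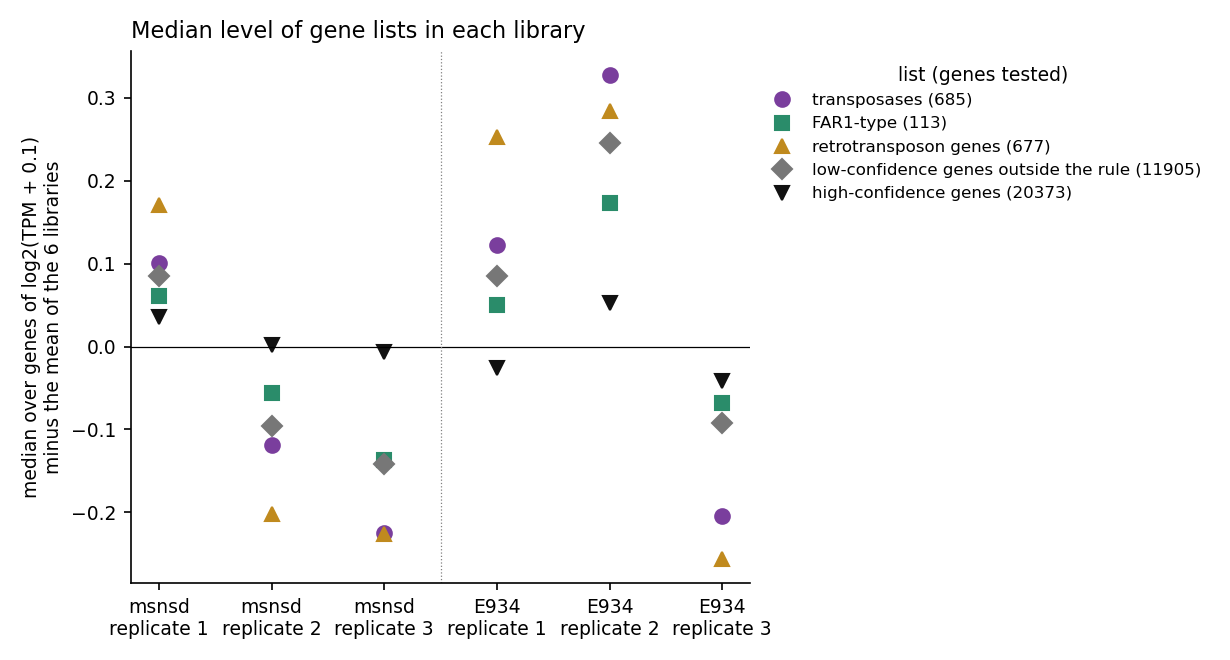
Median over the genes of a list of the log2(TPM + 0.1) value in a library minus the mean of the 6 libraries (vertical axis) for the 3 msnsd and the 3 E934 libraries (horizontal axis). Transposase genes (circles) reached 0.33 in E934 replicate 2 and -0.23 in msnsd replicate 3, and the retrotransposon genes and low-confidence genes outside the rule were also highest in E934 replicate 2, while the high-confidence genes stayed between -0.04 and 0.05.

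No member passed the threshold for a difference between the genotypes in limma on TPM. Differences were tested with limma on log2(TPM + 0.1) over 32968 genes, with a threshold of 1.5 on the absolute log2 fold change (msnsd over E934) and of 0.05 on the Benjamini-Hochberg adjusted p. Of all genes tested 16 passed (0.0485%), and of the 798 members 0 passed, the smallest adjusted p among them being 0.0748. At the same thresholds the count model of the study listed more transcripts, with 1 member among them (described below). At an unadjusted p under 0.05 in limma, 15 members were higher in msnsd (1.88%) and 55 were lower (6.89%), while of all genes 5.58% were higher and 5.09% were lower. Of the 1285 members 1134 were in the low-confidence set, and the 11905 tested genes of that set outside the rule also had more lower than higher calls, 3.20% higher and 7.33% lower. The excess of lower calls is therefore not read as particular to the members. These lists were not matched for level, and the difference between them was not tested. By the libraries alone, 25 members (3.13%) had every msnsd value above every E934 value and 72 (9.02%) had every msnsd value below, against 8.73% and 7.86% of all genes. Limma without the mean-variance trend put 1 member past the threshold, HORVU.MOREX.r3.5HG0425240, described below.

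The transposase genes at an unadjusted p under 0.05 were 13 higher in msnsd (1.90%) and 47 lower (6.86%). The 13 had a median of 3.11 in the mean normalized count that the authors give for each gene over all libraries, and 8 of them were under 10. The 47 had a median of 17.3, with 32 at 10 or more, and the median of their log2 fold changes was -0.98, which includes 4 genes listed at 0 in every msnsd library, whose fitted value depends on the pseudocount. In 43 of the 47 the genotypes did not overlap, but a choice by p with 3 libraries per genotype favours this. Of all 685 tested transposase genes, 20 (2.92%) had every msnsd value above every E934 value and 60 (8.76%) below. For all genes the shares were 8.73% and 7.86%. Split by class, 6 CACTA genes were higher and 25 lower of 310 tested (1.94% and 8.06%). For Mutator it was 1 higher and 5 lower of 108 (0.926% and 4.63%), and for PIF/Harbinger 4 and 6 of 114 (3.51% and 5.26%). For hAT genes it was 1 and 7 of 106 (0.943% and 6.60%), and for Mariner 1 and 1 of 12. For those with no family named it was 0 and 3 of 35 (0% and 8.57%). Of all genes 5.58% were higher and 5.09% lower, so the lower calls of Mutator and PIF/Harbinger genes were near that share. Among the 233 transposase genes with a mean normalized count of at least 10, a limit chosen after seeing the data, 5 were higher and 32 lower (2.15% and 13.7%), against 6.55% and 5.35% of all genes held to the same limit. The low-confidence genes outside the rule were not held to this limit. Without E934 replicate 2 the members split into 29 higher and 35 lower, and without msnsd replicate 3 into 14 higher and 34 lower. The shares of all genes with a library left out were not computed.

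The median log2 fold change was -0.21 over the 685 tested transposase genes, of which 433 (63.2%) were below 0, and -0.02 over all genes. By class it was -0.24 for CACTA, -0.15 for Mutator, -0.15 for PIF/Harbinger, -0.18 for hAT, 0.15 for Mariner and -0.22 for those with no family named. It did not rest on the lowest levels, being -0.17 for transposase genes of 0.1 to 0.3 TPM, -0.21 for 0.3 to 1 TPM, -0.23 for 1 to 3 TPM, -0.23 for 3 to 10 TPM and -0.18 for 10 TPM or more. In the same bands the medians of all genes lay between -0.04 and -0.01, and those of the low-confidence genes outside the rule between -0.17 and -0.10. At an unadjusted p under 0.05 in limma, 10 of 677 retrotransposon genes were higher (1.48%) and 34 lower (5.02%). Of all genes 5.58% were higher and 5.09% lower, so the lower calls of the retrotransposon genes were near that share. The retrotransposon genes had a median of -0.16, and the low-confidence genes outside the rule one of -0.13. These medians are given as descriptions and no difference between the lists was tested. Without E934 replicate 2 the median of the transposase genes was -0.08, and without msnsd replicate 3 it was -0.11.

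**Figure D3:**
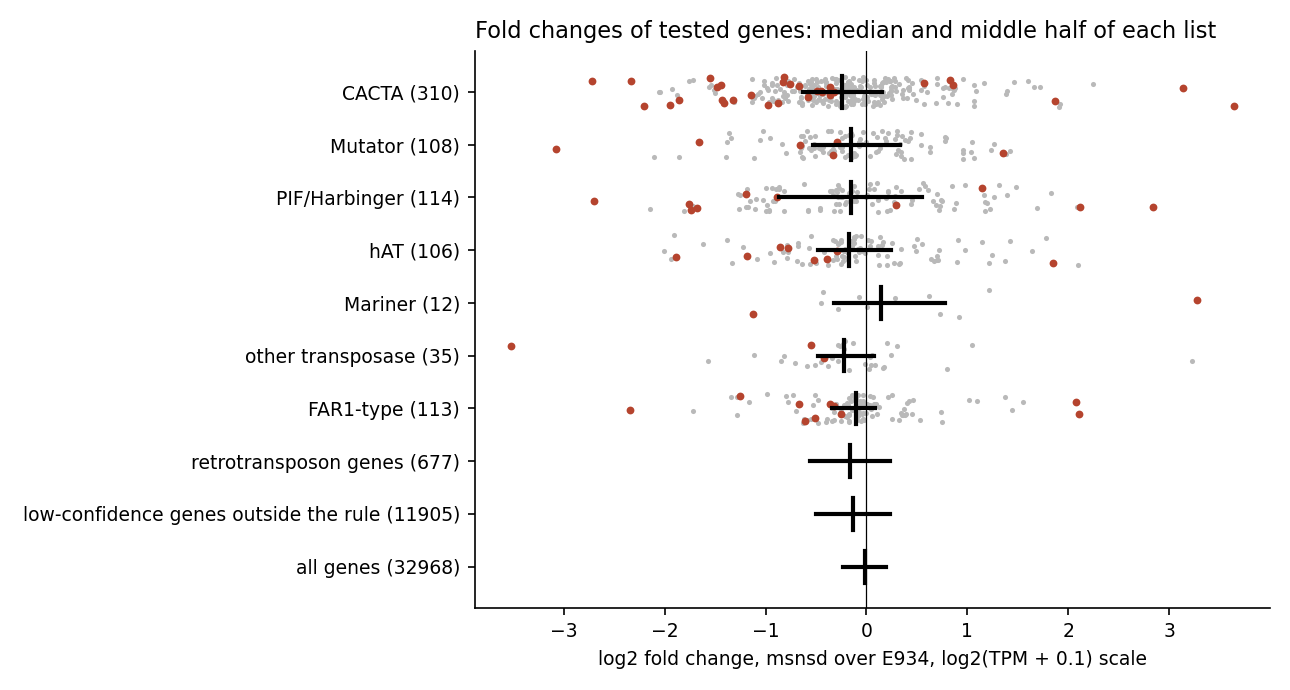
Log2 fold changes, msnsd over E934, of the tested genes of each class on the log2(TPM + 0.1) scale (points; dark red where the unadjusted limma p was under 0.05), with the median and the range from the lower to the upper quartile of each list (black bars). The medians of all classes but Mariner lie left of 0, at -0.24 for CACTA and -0.11 for FAR1-type genes, as do those of the retrotransposon genes (-0.16) and the low-confidence genes outside the rule (-0.13), while that of all genes is -0.02.

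Of the 10 transposase genes with the smallest p, 3 were higher in msnsd and all 3 were listed at 0 in every E934 library. The CACTA gene HORVU.MOREX.r3.5HG0425240 (Morex V3, 5H, 11257366 to 11257844) had 1.00, 0.78 and 0.61 TPM in msnsd replicates 1, 2 and 3, and was listed at 0 in each E934 library. Its limma adjusted p was 0.0748 (exact two-sided permutation p = 0.1, the smallest that 20 assignments allow). Without the mean-variance trend the limma adjusted p was 0.0155, and over all alternatives it lay between 0.0155 and 0.321. Its mean normalized count was 2.22, so that few reads stand behind the difference. The CACTA gene HORVU.MOREX.r3.1HG0011000 (1H, 26307882 to 26308184) had 0.46, 2.48 and 1.24 TPM in msnsd, at a limma adjusted p of 0.107. The PIF/Harbinger gene HORVU.MOREX.r3.4HG0405520 (4H, 570946059 to 570946379), whose protein carries a plant transposase domain (PF04827), had 1.37, 0.32 and 0.49 TPM in msnsd, at a limma adjusted p of 0.166. Both were likewise listed at 0 in E934, and their mean normalized counts were 2.05 and 1.38.

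The other 7 were lower in msnsd. The 4 with the most reads behind them are given first, and no overlap of the genotypes was seen in any of the 7. The hAT gene HORVU.MOREX.r3.4HG0363020 (4H, 210961383 to 210961733) had 10.4, 10.4 and 9.52 TPM in msnsd, against 17.98, 21.1 and 13.95 TPM in E934. The msnsd libraries were close together and all below E934, with a log2 fold change of -0.78 (SE 0.16, limma adjusted p = 0.164). The CACTA gene HORVU.MOREX.r3.6HG0566360 (6H, 101333852 to 101334346) had 2.88, 2.72 and 2.45 TPM in msnsd and 5.14, 5.22 and 4.10 TPM in E934, a log2 fold change of -0.82 (SE 0.18, limma adjusted p = 0.182). The CACTA gene HORVU.MOREX.r3.4HG0389930 (4H, 487978740 to 487979237) had 1.08, 0.58 and 1.29 TPM in msnsd and 2.80, 3.49 and 2.23 TPM in E934. The hAT gene HORVU.MOREX.r3.7HG0710410 (7H, 463531647 to 463532174) had 1.95, 1.90 and 1.29 TPM in msnsd and 4.21, 5.19 and 2.82 TPM in E934. Neither overlapped between the genotypes, and their log2 fold changes were -1.48 and -1.18 (limma adjusted p = 0.204 and 0.230).

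The remaining 3 of the 7 had mean normalized counts of 3.06 to 15.8. The Mariner gene HORVU.MOREX.r3.1HG0004830 (1H, 9588324 to 9588608) had 3.11, 2.72 and 5.27 TPM in msnsd and 7.50, 8.79 and 7.38 TPM in E934. The PIF/Harbinger gene HORVU.MOREX.r3.7HG0707520 (7H, 443801861 to 443802163) had 0.69, 0.33 and 0.57 TPM in msnsd and 1.53, 2.79 and 1.76 TPM in E934. The Mutator gene HORVU.MOREX.r3.7HG0661540 (7H, 67167006 to 67167347) had 0.25, 0 and 0 TPM in msnsd and 1.77, 0.60 and 1.52 TPM in E934. All 3 were lower in every msnsd library, at limma adjusted p = 0.194, 0.173 and 0.181 in the same order. For the Mutator gene, at 0 in some msnsd libraries, the log2 fold change of -3.08 depends on the pseudocount.

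**Figure D4:**
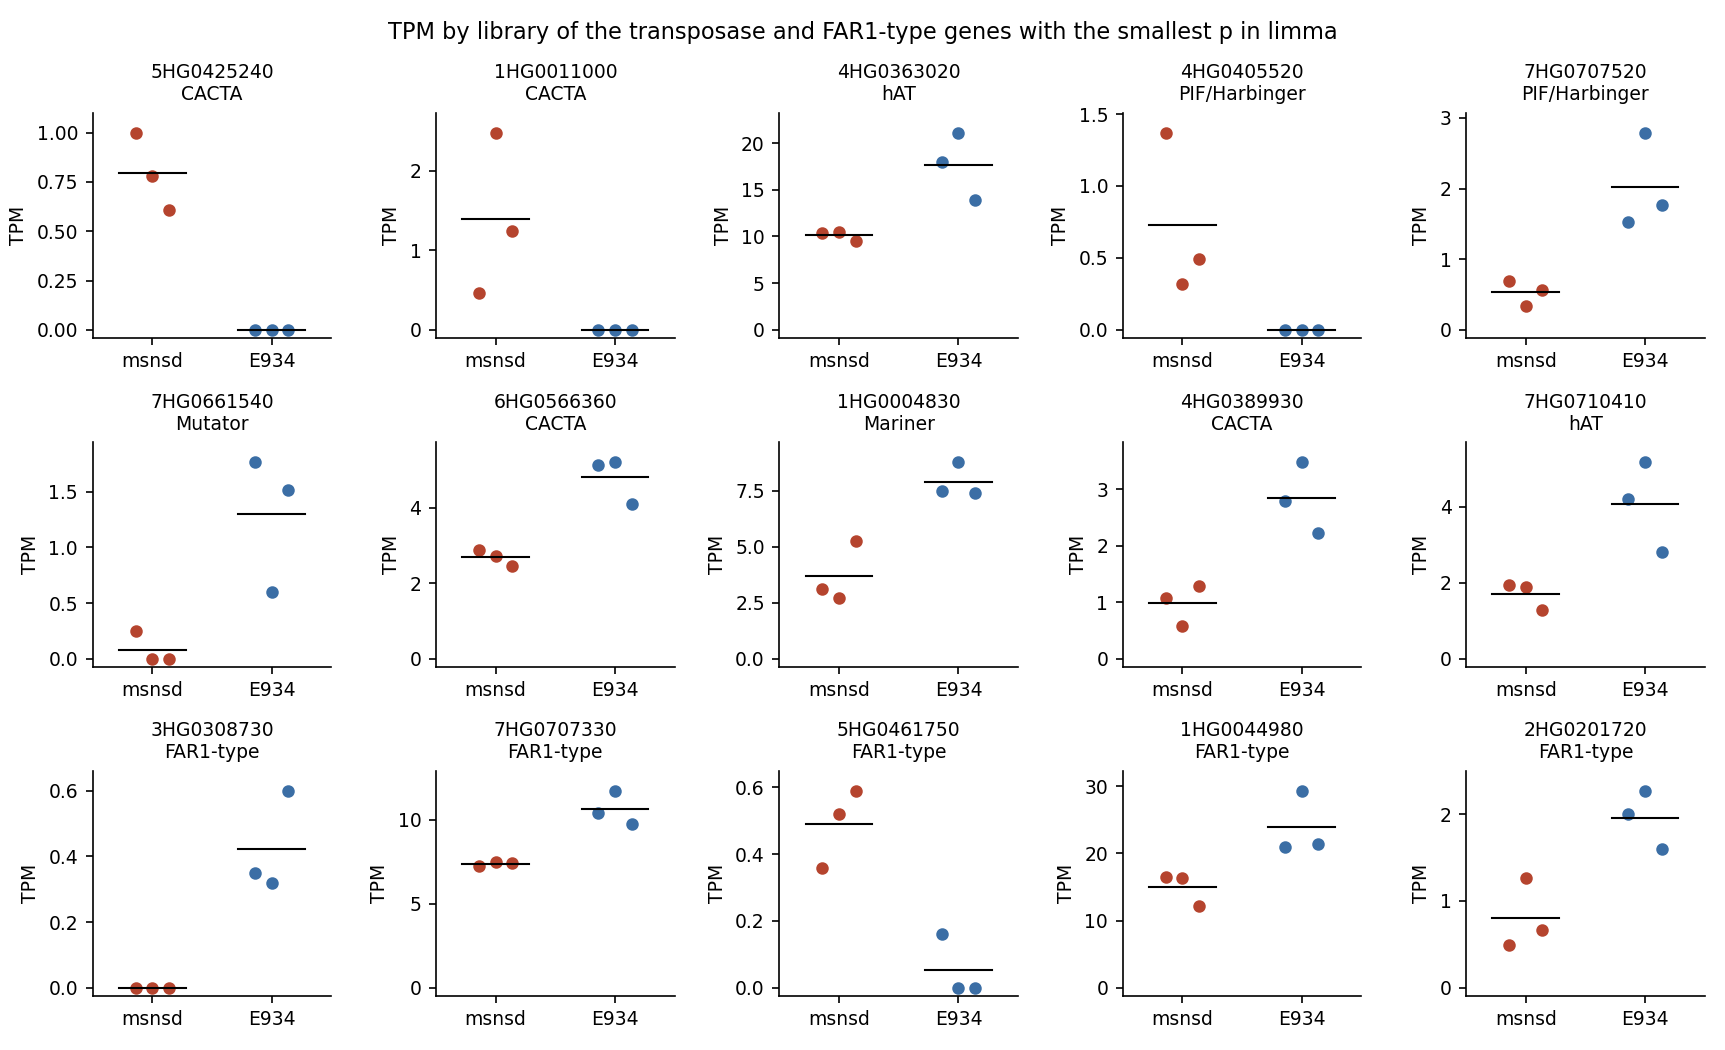
TPM in each library (points; black line, mean of 3) of the 10 transposase genes and 5 FAR1-type genes with the smallest limma p, msnsd left of E934, named without the common part HORVU.MOREX.r3 of the identifier. In all 15 panels the genotypes do not overlap, and the 3 transposase genes that were higher in msnsd are at 0 in E934, yet the smallest adjusted p is 0.0748.

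Among the largest differences at an unadjusted p under 0.05 without overlap, 4 further genes were seen. The CACTA gene HORVU.MOREX.r3.7HG0686810 had 0.18, 0 and 0.44 TPM in msnsd and 1.45, 3.19 and 0.75 TPM in E934. The PIF/Harbinger gene HORVU.MOREX.r3.4HG0372880 had 0, 0.67 and 0.18 TPM in msnsd and 1.91, 1.86 and 1.40 TPM in E934. The CACTA gene HORVU.MOREX.r3.4HG0371830, with a domain of CACTA transposases (PF02992), had 0.45, 0 and 0.74 TPM in msnsd and 2.41, 1.27 and 1.62 TPM in E934. In each of the 3 the highest msnsd library lay below the lowest E934 library, and each was at 0 in 1 msnsd library, so the size of the difference depends on the pseudocount. The hAT gene HORVU.MOREX.r3.6HG0586140 was the opposite case, with 1.42, 0.68 and 1.17 TPM in msnsd and 0, 0.45 and 0.49 TPM in E934. The limma adjusted p of these 4 lay between 0.267 and 0.447.

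In all, 27 of the 798 tested members were listed at 0 in every E934 library and 38 in every msnsd library. Among all 32968 genes tested these numbers were 350 and 497. The median of the mean level was 0.168 TPM over all members and 2.07 TPM over all genes. Since genes at low levels are more often listed at 0 and the lists were not matched for level, the numbers are not compared. Beside the 3 named above, 10 of the members at 0 in a genotype had a mean of at least 0.5 TPM in the other genotype. None of the 10 was above 0 in all 3 libraries of that genotype. The transposase gene HORVU.MOREX.r3.1HG0015660 (1H, 44308557 to 44310341), with a DDE endonuclease domain (PF13359), was listed at 0 in msnsd and had 0, 3.92 and 3.70 TPM in E934. Its values in E934 replicates 2 and 3 were close together, with 0 in replicate 1. The Mariner gene HORVU.MOREX.r3.1HG0060510 had 3.11, 2.72 and 0 TPM in msnsd and was listed at 0 in E934. The CACTA gene HORVU.MOREX.r3.4HG0401100 had 3.45 TPM in msnsd replicate 1 and 0 in the other 5 libraries. The other 7 were at most 1.66 TPM in any library: HORVU.MOREX.r3.7HG0664000 (hAT), HORVU.MOREX.r3.5HG0508770 (PIF/Harbinger) and HORVU.MOREX.r3.5HG0458350 (CACTA) were listed at 0 in E934, and HORVU.MOREX.r3.3HG0309990 (hAT), HORVU.MOREX.r3.7HG0646390 (PIF/Harbinger), HORVU.MOREX.r3.3HG0284650 and HORVU.MOREX.r3.7HG0741420 (both CACTA) in msnsd. No fold is given for any of these 10 genes.

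A single member, the Mutator gene HORVU.MOREX.r3.7HG0741160 (7H, 607330884 to 607332469), is in the list of differential transcripts that the study drew from these same libraries, so its place there is not independent evidence. It had 2.56, 1.02 and 0.94 TPM in msnsd and 5.20, 6.47 and 2.70 TPM in E934. The highest msnsd library, replicate 1, came just under the lowest E934 library, replicate 3. The log2 fold change was -1.66 (SE 0.46, limma adjusted p = 0.287; exact two-sided permutation p = 0.1).

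The gene behind msnsd was mapped to 5H, to a stretch that holds HvTCP25 (HORVU.MOREX.r3.5HG0497460), a gene for a TCP transcription factor. Within 10 Mb of it lay 16 members, of which 9 were tested and 1 had an unadjusted p under 0.05 in limma. Of all genes tested, 5.58% were higher and 5.09% lower at that p, so 1 of 9 is not read as particular to this stretch. The nearest tested member, 0.131 Mb away, was the Mutator gene HORVU.MOREX.r3.5HG0497380 (5H, 494773565 to 494773945), with 1.48, 0.36 and 0.61 TPM in msnsd and 0.82, 0.74 and 0.76 TPM in E934. The E934 libraries were alike and lay inside the range of msnsd (log2 fold change -0.12, SE 0.49). The member with the smaller p was the CACTA gene HORVU.MOREX.r3.5HG0493800 (5H, 486448370 to 486449635), at 0.24, 0.05 and 0.24 TPM in msnsd and 0.48, 0.55 and 0.80 TPM in E934, without overlap (log2 fold change -1.43, SE 0.49, limma adjusted p = 0.380). The other 7, which overlapped between the genotypes, had log2 fold changes between -0.83 and 1.02. They were HORVU.MOREX.r3.5HG0494450 (no family named), HORVU.MOREX.r3.5HG0494960 and HORVU.MOREX.r3.5HG0498440 (CACTA), HORVU.MOREX.r3.5HG0500440 (Mutator), HORVU.MOREX.r3.5HG0500430 (hAT), and HORVU.MOREX.r3.5HG0499510 and HORVU.MOREX.r3.5HG0500500 (FAR1-type).

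The most abundant transposase genes overlapped between the genotypes in all 8 cases, and 5 of the 8 were hAT genes. HORVU.MOREX.r3.1HG0023880 (hAT, 1H, 92997837 to 92998513), with a BED zinc finger (PF02892), had 104, 68.0 and 92.1 TPM in msnsd and 73.0, 126 and 88.2 TPM in E934. The lowest value was in msnsd and the highest in E934, with the rest mixed. HORVU.MOREX.r3.6HG0586080 (hAT, 6H, 275105384 to 275110887), the longest of the 8 and the one with by far the most reads (mean normalized count 9321), had 78.6, 69.1 and 64.5 TPM in msnsd and 91.9, 85.7 and 70.7 TPM in E934. Its log2 fold change was -0.22 (SE 0.12, limma adjusted p = 0.542). HORVU.MOREX.r3.5HG0467460 (hAT) had 99.9, 65.6 and 57.2 TPM in msnsd and 108, 76.5 and 66.0 TPM in E934. HORVU.MOREX.r3.3HG0287420 (hAT) averaged 59.9 ± 11.6 TPM in msnsd and 64.2 ± 7.66 TPM in E934, and HORVU.MOREX.r3.3HG0270200 (hAT) 43.9 ± 3.79 TPM in msnsd and 48.5 ± 3.69 TPM in E934 (SD, n = 3 each).

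Of the other 3 of these 8, the CACTA genes HORVU.MOREX.r3.3HG0272190 and HORVU.MOREX.r3.4HG0376950 averaged 54.1 ± 14.1 and 45.1 ± 6.28 TPM in msnsd, against 59.2 ± 8.35 and 50.5 ± 5.28 TPM in E934 (SD, n = 3 each). HORVU.MOREX.r3.4HG0394500 (4H, 519949304 to 519949711) is described as a Harbinger transposase-derived nuclease. It had 43.0, 35.0 and 43.2 TPM in msnsd and 77.6, 31.9 and 47.0 TPM in E934, where replicate 1 stood far above replicate 2. The log2 fold changes of the 8 genes ran from -0.28 to -0.11, and the smallest limma adjusted p among them was 0.542. All 8 lay in the low-confidence set.

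Outside the naming rule and chosen after their values were seen, a pair of high-confidence Mutator genes with over 10 TPM in every library may be added. Both are described as Mutator-like transposase-like proteins. HORVU.MOREX.r3.3HG0231610 (3H, 26822253 to 26830100), with 13.2% of the Mutator sum, had 24.1, 27.9 and 24.2 TPM in msnsd and 28.7, 34.9 and 32.3 TPM in E934. HORVU.MOREX.r3.6HG0574590 had 16.0, 16.8 and 16.7 TPM in msnsd and 18.4, 22.1 and 20.3 TPM in E934. Neither overlapped between the genotypes, and the log2 fold changes were -0.33 and -0.30 (limma adjusted p = 0.352 and 0.365). Both had an unadjusted p under 0.05 in limma, and a choice made on the values favours genes without overlap. A mean of at least 10 TPM was reached by 7 Mutator genes, and the pair does not stand for the rest of them.

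Among the FAR1-type genes most fold changes were small. Of 113 tested, 76 (67.3%) had a log2 fold change below 0, with a median of -0.11, and with an unadjusted p under 0.05 there were 2 above and 8 below E934 (1.77% and 7.08%), where all genes gave 5.58% and 5.09% and the low-confidence genes outside the rule 3.20% and 7.33%. The 2 had mean normalized counts under 10, and the 8 had a median count of 219. The 51 tested genes of the high-confidence set had a median of -0.08 with 0 higher and 3 lower (0% and 5.88%, against 7.09% and 3.72% of all high-confidence genes). The 62 of the low-confidence set had a median of -0.19 with 2 higher and 5 lower (3.23% and 8.06%, against 3.12% and 7.31% of all low-confidence genes). Summed, the 68 high-confidence genes gave 517, 477 and 458 TPM in msnsd and 508, 530 and 490 TPM in E934. The 85 low-confidence genes gave 289, 272 and 222 TPM in msnsd and 309, 354 and 287 TPM in E934. Both sums overlapped between the genotypes. The median of all FAR1-type genes was -0.03 without msnsd replicate 3 and -0.05 without E934 replicate 2.

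FAR1-type genes with all domains annotated had the highest median level. A complete member carries a FAR1 DNA-binding domain (PF03101), the MULE transposase core (PF10551) and a SWIM zinc finger (PF04434). All 3 domains were annotated in 22 genes, all in the high-confidence set, with a median of 8.58 TPM, and 20 of them were at 1 TPM or more. The 27 genes with FAR1 and MULE domains had a median of 0.797 TPM, the 18 with MULE alone 0.241 TPM and the 25 with FAR1 alone 0.120 TPM. The 3 with MULE and SWIM domains had a median of 3.91 TPM. In 54 genes none of the 3 was annotated, and their median was 0.472 TPM. These levels were not tested against each other. The sums of the complete genes were 205 ± 7.29 TPM in msnsd and 218 ± 13.4 TPM in E934 (SD, n = 3 each). Their median log2 fold change was -0.09. At an unadjusted p under 0.05 in limma, 0 were higher and 2 lower of 21 tested, against 5.58% and 5.09% of all genes. By name, 97 genes were called FAR1-RELATED SEQUENCE 5 (median 0.282 TPM), 22 were called SEQUENCE 3 (1.66 TPM) and 11 SEQUENCE 6 (11.7 TPM). The transposase core was also annotated in 52 Mutator genes, whose median was 0.1 TPM, against 3.88 TPM for the 70 FAR1-type genes that carry it.

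**Figure D5:**
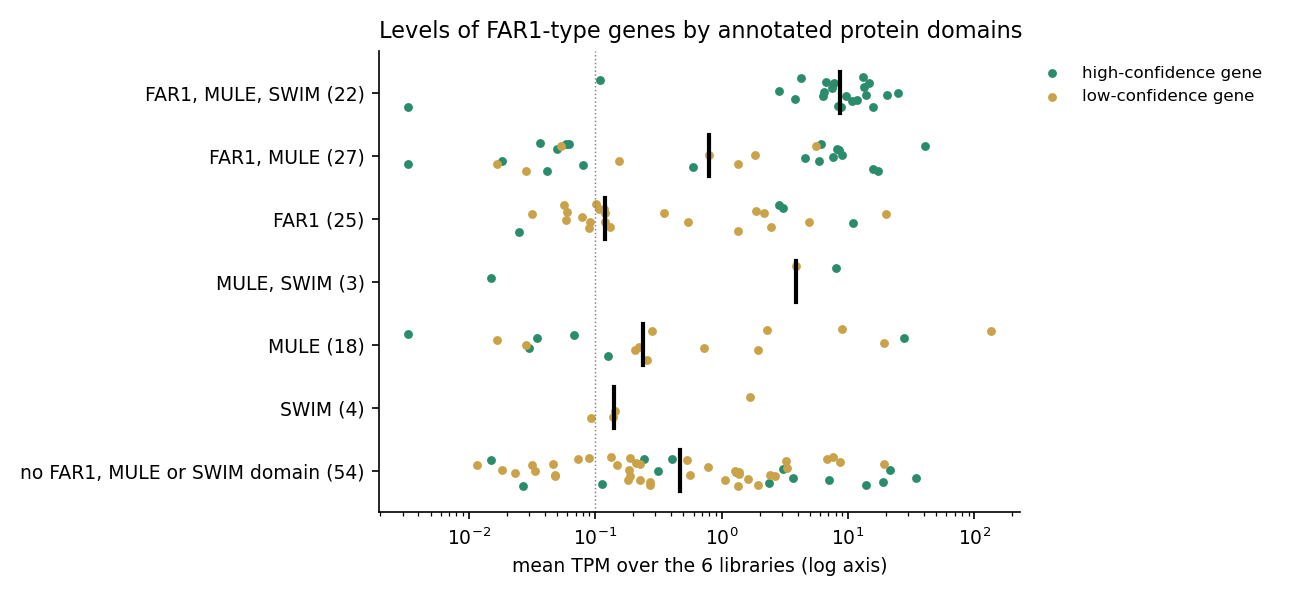
Mean TPM over the 6 libraries (log axis; dotted line, the 0.1 TPM needed for testing) of each FAR1-type gene, by the domains annotated in its protein and by annotation confidence, with the median of each row (black bar). The 22 genes with all 3 domains have a median of 8.58 TPM and the 25 with the FAR1 domain alone one of 0.120 TPM.

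The most abundant FAR1-type gene was HORVU.MOREX.r3.6HG0575770 (6H, 169184239 to 169186428), described as FAR1-RELATED SEQUENCE 5 and annotated with the MULE core alone. It had 139, 131 and 107 TPM in msnsd and 150, 155 and 130 TPM in E934, and by itself made up 17.2% of the class. Only msnsd replicates 1 and 2 reached above the lowest E934 library, and the log2 fold change was -0.21 (SE 0.12, limma adjusted p = 0.545). HORVU.MOREX.r3.6HG0630200 (FAR1-RELATED SEQUENCE 3, 6H, 554714718 to 554718091) had 43.6, 37.9 and 39.4 TPM in msnsd and 41.9, 42.2 and 39.3 TPM in E934. HORVU.MOREX.r3.3HG0305980, described as an FRS transcription factor, had 38.9, 35.4 and 29.8 TPM in msnsd and 36.9, 36.0 and 30.7 TPM in E934. HORVU.MOREX.r3.3HG0227170 (FAR1-RELATED SEQUENCE 5) had 34.6, 25.6 and 26.7 TPM in msnsd and 27.3, 27.6 and 26.1 TPM in E934. In these 3 the values of the genotypes were interleaved, and their log2 fold changes were -0.03, 0.00 and 0.09 with SEs of 0.08 to 0.13.

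HORVU.MOREX.r3.5HG0532690 (FAR1-RELATED SEQUENCE 6, 5H, 576710430 to 576713278), which carries all 3 domains, had 22.3, 26.1 and 21.7 TPM in msnsd and 25.8, 28.01 and 25.6 TPM in E934, with an overlap through msnsd replicate 2. Of the 6 most abundant genes only HORVU.MOREX.r3.3HG0230250 (described as FAR1, 3H, 22716229 to 22716929) did not overlap between the genotypes. It had 19.3, 19.2 and 18.4 TPM in msnsd and 24.6, 20.5 and 26.7 TPM in E934. The msnsd libraries were nearly alike and E934 replicate 2 came closest to them, and the log2 fold change was -0.32 (SE 0.11, limma adjusted p = 0.391).

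The 5 FAR1-type genes with the smallest p were all of the low-confidence set. HORVU.MOREX.r3.7HG0707330 (FAR1-RELATED SEQUENCE 5, 7H, 443576104 to 443577162) had 7.22, 7.50 and 7.41 TPM in msnsd and 10.4, 11.7 and 9.75 TPM in E934. The msnsd values were tightly grouped below E934, with a log2 fold change of -0.51 (SE 0.12, limma adjusted p = 0.195). HORVU.MOREX.r3.1HG0044980 (FAR1-RELATED SEQUENCE 5, 1H, 294848575 to 294849069) had 16.5, 16.4 and 12.1 TPM in msnsd and 20.9, 29.3 and 21.4 TPM in E934, a log2 fold change of -0.66 (SE 0.18, limma adjusted p = 0.274). Both are annotated with the MULE core and no FAR1 domain. HORVU.MOREX.r3.2HG0201720 (FAR1-RELATED SEQUENCE 3) had 0.49, 1.26 and 0.67 TPM in msnsd and 2.0, 2.27 and 1.6 TPM in E934. HORVU.MOREX.r3.3HG0308730 (FAR1) was listed at 0 in msnsd and had 0.35, 0.32 and 0.60 TPM in E934, and HORVU.MOREX.r3.5HG0461750 (FAR1-RELATED SEQUENCE 5) had 0.36, 0.52 and 0.59 TPM in msnsd and 0.16, 0 and 0 TPM in E934. Mean normalized counts of 1.18 and 1.67 stand behind these last genes, against 227 for HORVU.MOREX.r3.7HG0707330.

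The place of the genes along the chromosomes is given by shares, with no test. Of 1131 transposase genes placed on a chromosome, 36.7% started between 25% and 75% of its annotated length, compared with 25.5% of the 153 FAR1-type genes, 44.5% of retrotransposon genes, 23.3% of high-confidence genes and 37.5% of low-confidence genes. By class the share was 39.1% for CACTA, 37.4% for hAT, 34.0% for Mutator and 33.1% for PIF/Harbinger genes. Every chromosome held between 140 and 195 transposase genes and between 12 and 34 FAR1-type genes, with the highest number of the last on 5H. The median log2 fold change of the transposase genes was below 0 on each of the 7 chromosomes, from -0.25 on 3H to -0.13 on 5H, where the medians of all genes were between -0.03 and 0.00.

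Many members stood next to each other. There were 246 pairs of members adjacent in gene order, with 425 members (33.1%) in at least 1 pair and a median gap of 355 bp, and 218 of the pairs were of a single class. Of the 134 pairs with both genes tested, 78 had log2 fold changes of the same sign, 60 of them both below 0, and in 0 pairs did both genes have an unadjusted p under 0.05 in limma. Of all tested members, 509 of 798 (63.8%) were below 0, and the number of same-sign pairs that this share alone would give was not computed. A run of hAT models on 5H, chosen after its values were seen, is given as an example. It is not typical, since its levels lie far above the median of the transposase genes, 0.158 TPM. HORVU.MOREX.r3.5HG0467440, HORVU.MOREX.r3.5HG0467450, HORVU.MOREX.r3.5HG0467460 and HORVU.MOREX.r3.5HG0467470 follow each other with gaps of 304, 453 and 301 bp, and had mean levels of 16.7, 44.1, 78.8 and 29.7 TPM over the 6 libraries. Their log2 fold changes were all below 0, between -0.31 and -0.18. Neighbouring models can come from a single element, so they do not count as independent genes.

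The genes that plants use to silence transposons were read from a list by description, of DNA methyltransferases, argonautes, dicers, RNA-dependent RNA polymerases, DDM1, MOM1 and H3 lysine-9 methyltransferases. Of 86 such genes 71 were tested, and 0 passed the threshold in limma. With an unadjusted p under 0.05 there were 0 above and 8 below E934 (0% and 11.3%, against 5.58% and 5.09% of all genes), and by the libraries alone 0 and 10 did not overlap (0% and 14.1%, against 8.73% and 7.86% of all genes). They summed to 1709, 1731 and 1597 TPM in msnsd and to 1800, 1999 and 1759 TPM in E934, with every msnsd library below every E934 library and E934 replicate 2 again the highest, and their median log2 fold change was -0.10. The descriptions were searched for light signalling partners of FAR1 in Arabidopsis (FHY1, HY5 and phytochrome A), and only 2 genes were found, by the words phytochrome A. A match of these words does not show that a gene is such a partner. Both were tested, neither had an unadjusted p under 0.05, and their sum was 5.50 ± 0.23 TPM in msnsd and 6.17 ± 0.65 TPM in E934 (SD, n = 3 each).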

How the data were processed

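The authors cleaned the reads with fastp, quantified transcripts with Salmon 1.9.0 on the Morex V3 annotation and deposited TPM per gene for the 6 libraries. Whether strand was used is not given in the sources used here, so reads of overlapping genes cannot be told apart. The table also holds the authors' mean normalized count over all libraries, a score used here to describe abundance and, in an alternative chosen after seeing the data, to keep genes at 10 or more, and their own comparison (log2 fold changes, standard errors, test statistics, p-values and adjusted values), which was not used. The number of columns of single libraries left out was 0.

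Genes with a mean of at least 0.1 TPM entered a limma fit (version 3.58.1, R 4.3.3) of log2(TPM + 0.1) on genotype alone, moderated by eBayes with a mean-variance trend. P-values were adjusted after Benjamini-Hochberg across the 32968 genes. The thresholds are those of the study, whose count model could not be used because TPM are not counts. With that model the study listed more differential transcripts than the 16 genes found here. The result of 0 members past the threshold therefore holds for limma on TPM. Fold changes on this scale understate the change of low genes. An exact permutation test was added for named genes. The fit was tested on simulated data. Python 3.11.15 with pandas 2.3.3 served for the rest.

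Members, lists and tests were chosen with earlier results of these data known. Named are the 10 transposase and 5 FAR1-type genes with the smallest p, the 8 and 6 most abundant, members at 0 in a genotype and at a mean of at least 0.5 TPM in the other, the 5 largest differences in each direction at an unadjusted p under 0.05 without overlap, members of the study's list, members within 10 Mb of HvTCP25, and adjacent pairs with both at an unadjusted p under 0.05. Members with an adjusted p of at most 0.05 were to be named as well, and there were 0. The precision is set by 3 libraries per genotype, as TPM keep no depth.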

Additional observations from a re-analysis of the deposited data

How the results depend on the processing

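Of the members, 0 passed the threshold under every alternative run except limma without the mean-variance trend, which called 1, HORVU.MOREX.r3.5HG0425240. Of all genes, 16 passed, with 25 at a minimum mean of 1 TPM, 30 without the trend, 0 with the replicate number as a block and 0 whichever library was left out. Members above E934 with an unadjusted p under 0.05 in limma numbered 15 of 798 (1.88%, against 5.58% of all genes). They were 6 of 282 (2.13%) at a minimum mean of 1 TPM and 25 of 1285 (1.95%) with no minimum. At a mean normalized count of at least 10, added after seeing the data, they were 5 of 308 (1.62%, against 6.55% of all genes so limited). They were 9 to 29 when each library was left out. Members below E934 numbered 55 (6.89%, against 5.09% of all genes), with 72 (9.02%) without the trend and 65 (5.06%) with no minimum. They were 37 (13.1%) at a minimum mean of 1 TPM. At a mean normalized count of at least 10 they were 39 (12.7%, against 5.35% of all genes so limited). When each library was left out they were 34 to 64. The shares of all genes at the other settings were not computed, so those numbers are not read against a background. Among the settings that left out a library, the lowest and highest came without msnsd replicate 1 and E934 replicate 2 for the higher genes, and without msnsd replicates 3 and 1 for the lower genes. The medians stayed below 0 under every alternative run, from -0.33 to -0.08 for transposase genes and from -0.17 to -0.03 for FAR1-type genes, the extremes all with a library left out. With each library left out, the sums differed between genotypes (msnsd minus E934) by -421 to -150 TPM for transposase genes and by -111 to -48.0 TPM for FAR1-type genes.

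With the replicate block in limma, 16 members were higher and 53 lower at an unadjusted p under 0.05 and 0 passed the threshold. The shares of all genes at that p with the block were not computed. Deviations of same-numbered libraries of the genotypes were weakly correlated (0.0186, -0.160 and 0.0730). These values cannot show whether libraries of the same number were handled together. For the tested transposase genes the median was lowest in replicate 3 of both genotypes (-0.23 in msnsd and -0.20 in E934). It was highest in replicate 1 of msnsd and in replicate 2 of E934.

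Of 53 named members, 13 changed sign in some setting, each time with a library left out and each time not past the threshold. Their log2 fold changes then ranged from -0.28 to 0.11 (HORVU.MOREX.r3.1HG0023880), -0.0453 to 0.17 (HORVU.MOREX.r3.3HG0227170), -0.28 to 0.0818 (HORVU.MOREX.r3.3HG0272190), -0.26 to 0.0203 (HORVU.MOREX.r3.3HG0287420), -0.0860 to 0.11 (HORVU.MOREX.r3.3HG0305980), -0.58 to 0.0542 (HORVU.MOREX.r3.4HG0394500), -0.41 to 0.0207 (HORVU.MOREX.r3.5HG0467460), -0.85 to 0.89 (HORVU.MOREX.r3.5HG0494450), -0.44 to 0.39 (HORVU.MOREX.r3.5HG0494960), -0.61 to 0.28 (HORVU.MOREX.r3.5HG0497380), -0.92 to 0.51 (HORVU.MOREX.r3.5HG0499510), -0.21 to 1.14 (HORVU.MOREX.r3.5HG0500440) and -0.0879 to 0.0138 (HORVU.MOREX.r3.6HG0630200). The cause of these changes was not tested.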

Other observations

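Genes with an annotated transposon or FAR1 domain whose description the rule did not match numbered 65, of which 39 were tested. They summed to 350, 372 and 417 TPM in msnsd and 312, 390 and 322 TPM in E934, with the genotypes overlapping, and unlike the transposase genes the sum was not lowest in msnsd replicate 3. Their median log2 fold change was -0.09, and 0 passed the threshold. At an unadjusted limma p under 0.05, 1 was above and 1 below E934 (2.56% each, against 5.58% and 5.09% of all genes).

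The number of transposase genes above 0 TPM was 771, 690 and 722 in msnsd replicates 1, 2 and 3, and 769, 827 and 652 in E934 replicates 1, 2 and 3. The library with the most, E934 replicate 2, was also the one with the most genes of any kind above 0, 35537, and the library with the fewest, E934 replicate 3, had the fewest of any kind, 33227. FAR1-type genes above 0 numbered 128, 120 and 123 in msnsd and 122, 127 and 110 in E934.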
